A study of Mus musculus with 16 samples.

Results

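The 9 genes described here make up the NLRP3 inflammasome and the part of the interleukin-1 (IL-1) family that it serves, and their RNA was followed in peritoneal macrophages given oxidised lipoprotein, high glucose or both. They were chosen by gene symbol from the deposited count table, and all 9 of the 9 symbols were found among its 15871 entries. They are the sensor Nlrp3, the adaptor Pycard, the inflammatory caspases Casp1 and Casp4, the pore protein Gsdmd, the cytokines Il1b and Il18 and their secreted inhibitors Il1rn and Il18bp. The choice did not use measured values, but it was made with earlier results of these data known.

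Cells came from wild-type C57BL/6 mice aged 8 weeks, whose peritoneal macrophages were drawn out with 6% starch and kept for 48 h in 1 of 4 media. The H_O group (n = 4) had 33 mmol/L glucose and oxidised low-density lipoprotein (ox-LDL), a modified lipoprotein that turns macrophages into lipid-laden foam cells. The L_O group (n = 4) had ox-LDL in low glucose, the H_C group (n = 4) had 33 mmol/L glucose alone, and the L_C group (n = 4) had low glucose with 27.5 mM mannitol as an osmotic control. The labels write the dose of ox-LDL as 50 mg/ml, which may not be the intended unit. They name no mannitol for L_O, so in L_O against L_C the effects of ox-LDL and of missing mannitol cannot be told apart. The labels do not say whether replicates were separate animals or cultures, so every p-value measures the spread between these libraries, which may be technical.

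An inflammasome is a protein complex that forms in the cytosol when a sensor such as NLRP3 detects danger signals, cholesterol crystals among them. The sensor recruits the adaptor ASC, encoded by Pycard, which gathers caspase-1, and caspase-1 cuts the precursors of IL-1β and IL-18 and frees the pore-forming part of gasdermin D. Mouse Casp4 encodes caspase-11, which binds bacterial lipopolysaccharide in the cytosol and also cuts gasdermin D. Il1rn encodes an antagonist that blocks the IL-1 receptor, and Il18bp encodes a soluble protein that captures IL-18. RNA levels say nothing of whether the complex formed or its substrates were cut.

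Libraries held 32596640 to 41712885 counts, and 13527 entries, with all 9 members among them, passed the filter on low counts. L_C replicate 4 stood apart, with 3.71% of its counts from mitochondrial genes against 1.48 to 2.30% in the other 15 libraries, so results for the 9 genes that change without it are given both ways. The 7 macrophage markers were all detected, with a summed level of 19100 to 20600 CPM (counts scaled by library size) in H_O, 18000 to 18700 CPM in L_O, 18200 to 18700 CPM in H_C and 17100 to 19900 CPM in L_C. Most of that sum was Lyz2, at a mean of 15890 CPM in H_O, 14476 CPM in L_O, 14733 CPM in H_C and 14097 CPM in L_C. Of the 7, 1 rose and 2 fell in L_O against L_C, and 3 rose and 1 fell in H_O against H_C. In H_C against L_C 1 rose and 3 fell, and in H_O against L_O 2 rose and 0 fell. Of all entries, 12%, 10.4%, 5.02% and 2.71% rose and 13.8%, 11.5%, 7.75% and 3.39% fell, in that order. Of 10 neutrophil markers, Ly6g, Camp and Ngp had no entry under these symbols. The other 7 summed to 67.8 to 77.6 CPM in H_O, 74.3 to 86.3 CPM in L_O, 111 to 120 CPM in H_C and 134 to 193 CPM in L_C. Nearly all of that sum was Csf3r, at a mean of 65.9 CPM in H_O, 74.4 CPM in L_O, 109 CPM in H_C and 141 CPM in L_C. S100a8 averaged 3.28 to 4.33 CPM over the groups, and S100a9 at most 0.131 CPM. Of the 5 neutrophil markers that were tested, 3 fell in L_O against L_C, 2 in H_O against H_C, 2 in H_C against L_C and 1 in H_O against L_O, where 13.8%, 11.5%, 7.75% and 3.39% of all entries fell. Their part in the results below was not tested. The markers of dendritic cells (5 of 6 found), B cells (5 of 5), T and NK cells (5 of 6) and mast cells and basophils (2 of 5) each summed to at most 4.84 CPM in any library. The 7 markers of small peritoneal macrophages and monocytes, none of them at 0, summed to 366 to 406 CPM in H_O, 480 to 525 CPM in L_O, 761 to 794 CPM in H_C and 988 to 1060 CPM in L_C. Nearly all of that sum was Itgax, with group means from 291 CPM in H_O to 767 CPM in L_C, and Clec12a, from 83.3 to 243 CPM. Each of the others, Ccr2 and Ly6c2 among them, averaged at most 8.08 CPM in any group. Of these 7 markers, those that fell numbered 5 and 3 with ox-LDL in low and in high glucose, against 13.8% and 11.5% of all entries. They numbered 3 and 2 in H_C against L_C and in H_O against L_O, against 7.75% and 3.39%. Their part in the results below was not tested. In bulk RNA, fewer cells of a type and less RNA per cell cannot be told apart.

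Between genes, levels can be compared only per length, here as CPM per kilobase of annotated exon averaged over the 16 libraries. The length joins all annotated exons of a gene, 1497 bases for Casp1, 3800 for Pycard and 5535 for Il1rn. It may exceed that of the transcripts made in these cells, so the order of the genes depends on the length used. On that scale Casp1 was the most abundant member at 66.9, followed by Gsdmd at 25.2, Pycard at 19.8 and Il18bp at 13.6. Nlrp3 (5.85), Il1rn (5.60), Casp4 (5.39) and Il18 (4.23) lay close together, with ranges over the libraries that overlapped (4.03 to 7.21 for Nlrp3, 4.22 to 8.15 for Il1rn, 3.78 to 8.87 for Casp4 and 2.63 to 5.45 for Il18). Il1b was far below them at 0.0731. The place of Il18bp differed between groups, since its mean of 31.1 in L_C lay above Gsdmd (26.6) and Pycard (20.5) there, and its mean of 5.97 in H_O lay below Il1rn (6.89). RNA of the sensor, the adaptor, both caspases and the pore protein was thus found in all 16 libraries, while that of Il1b was at or near 0.

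**Figure D1:**
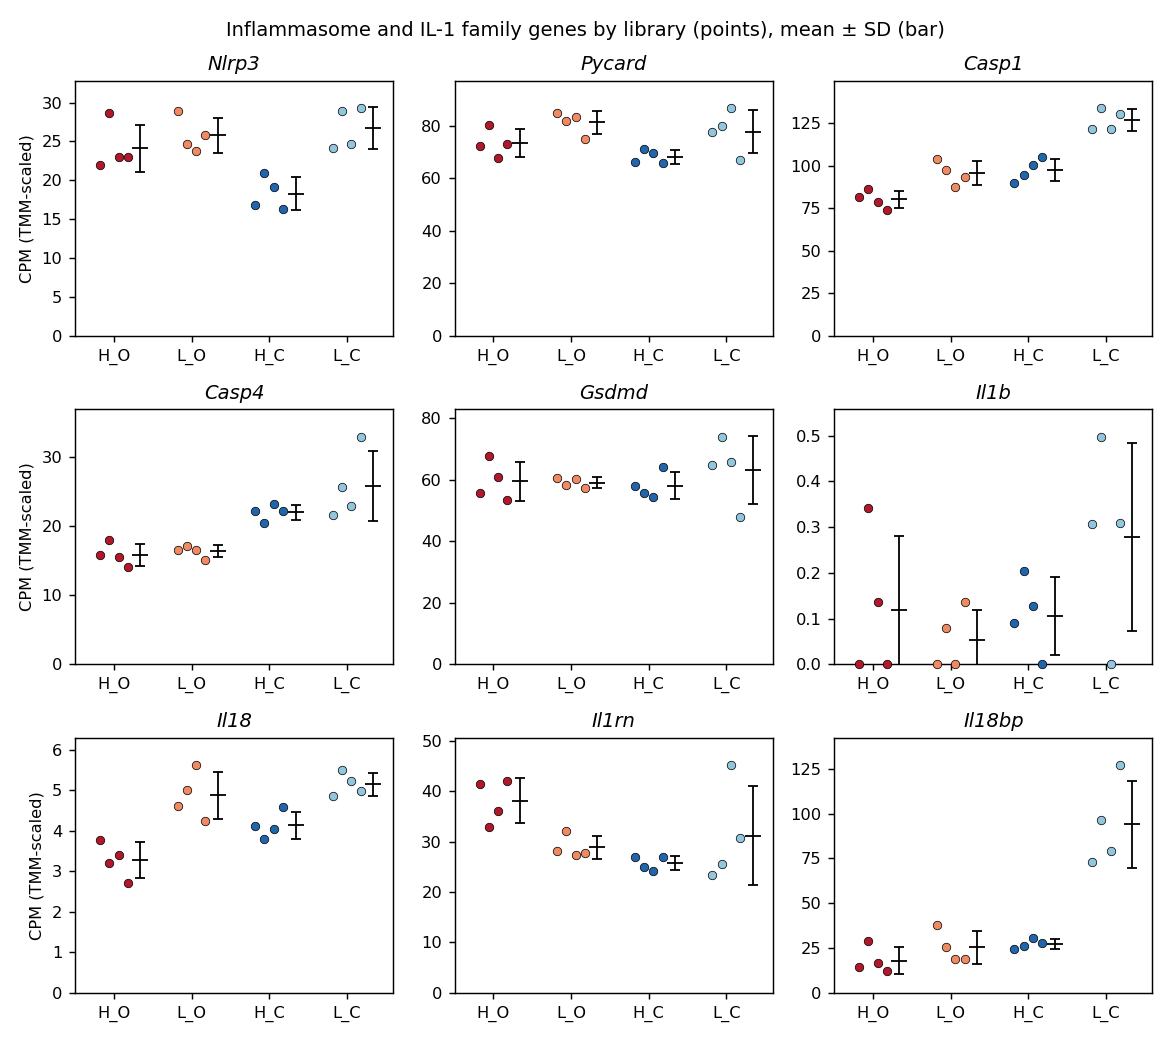
TMM-scaled CPM (vertical axes, each from 0) of the 9 genes in the H_O, L_O, H_C and L_C libraries; each point is a library, and the bar beside it is the mean ± SD (n = 4), cut at 0 for Il1b. Il18bp stood between 73.3 and 127 CPM in L_C and at or below 37.9 CPM in every other library, and Casp4 was lower in all 8 libraries with ox-LDL than in all 8 without it.

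Il18bp, the IL-18 binding protein gene (ENSMUSG00000070427.4) on chromosome 7, 102014885 to 102018690 on the minus strand (mm10), changed the most among the members that had reads in every library. It had 14.6, 28.8, 16.6 and 12.3 CPM in H_O, 37.9, 25.8, 19.0 and 18.8 CPM in L_O, 24.3, 26.4, 30.5 and 27.8 CPM in H_C, and 73.3, 96.6, 79.0 and 127 CPM in L_C. The L_C libraries were all above the 12 others, and the other 3 groups overlapped each other. In the edgeR quasi-likelihood test with Benjamini-Hochberg adjustment it fell by 1.89 ± 0.25 on the log2 scale (± SE) in L_O against L_C, which is a fall by 73.1% (adjusted p = 1.35e-05). It also fell by 1.78 ± 0.25 in H_C against L_C (edgeR adjusted p = 0.000124). Without L_C replicate 4, its highest library, the falls were 1.71 and 1.60. In H_O against H_C the change was -0.60 ± 0.25 (edgeR adjusted p = 0.103), and in H_O against L_O it was -0.49 ± 0.25 (edgeR adjusted p = 0.294). H_O replicate 2 lay near the H_C level, and without it the change against H_C was -0.91 with an edgeR adjusted p of 0.00763. A fit of the 8 H_O and H_C libraries alone gave an edgeR adjusted p of 0.0411. Il18bp shares 80 bases of exon, 2.64% of its length, with Numa1 on the opposite strand, and the strand setting of the counting is not given in the sources used here.

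Casp1, the gene of the central protease (ENSMUSG00000025888.5, chromosome 9, 5298517 to 5307265, plus strand), was lower with either treatment and lowest with both. Its levels were 81.8, 86.4, 78.7 and 74.3 CPM in H_O, 104, 97.8, 87.4 and 93.8 CPM in L_O, 90.3, 94.8, 100.5 and 105 CPM in H_C, and 122, 134, 122 and 131 CPM in L_C. All L_C libraries were above all others, all H_O libraries were below all others, and L_O and H_C overlapped. It fell by 24.6% in L_O against L_C (log2 fold change -0.41 ± 0.06, edgeR adjusted p = 7.99e-05). It fell by 17.7% in H_O against H_C (-0.28 ± 0.06, edgeR adjusted p = 0.00299) and by 23.1% in H_C against L_C (-0.38 ± 0.06, edgeR adjusted p = 0.000589). In H_O against L_O it fell by 16.2% (-0.25 ± 0.06, edgeR adjusted p = 0.0207), a call that was lost without H_O replicate 3 or 4 or L_O replicate 1 or 2 (adjusted p from 0.0575 to 0.0866). These comparisons share groups, so they are not independent of each other.

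Casp4, which lies next to Casp1 on chromosome 9 (ENSMUSG00000033538.13, 5308828 to 5336783, plus strand), separated the libraries by ox-LDL. It had 15.8, 17.9, 15.6 and 14.0 CPM in H_O, 16.6, 17.1, 16.6 and 15.2 CPM in L_O, 22.2, 20.5, 23.1 and 22.2 CPM in H_C, and 21.6, 25.6, 22.9 and 32.9 CPM in L_C. The highest library with ox-LDL was below the lowest without it, while H_O overlapped L_O and H_C overlapped L_C. Casp4 fell by 36.5% in L_O against L_C (-0.66 ± 0.11, edgeR adjusted p = 0.000176) and by 27.9% in H_O against H_C (-0.47 ± 0.11, edgeR adjusted p = 0.00391). Without L_C replicate 4 the fall in low glucose was 0.52 on the log2 scale. High glucose gave -0.23 ± 0.11 without ox-LDL (edgeR adjusted p = 0.186), or -0.09 without L_C replicate 4, and -0.05 ± 0.11 with it (edgeR adjusted p = 0.882).

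The stretches before the start sites of these 3 genes are shown because the 3 fell together with ox-LDL in low glucose. Each is the 250 bases before a RefSeq start (GRCm38.p6; for Casp4, the first of the 2 listed), written 5′ to 3′ on the gene's strand, and capitals mark matches to the consensus of NF-kappaB, a transcription factor of inflammatory genes. The positions are chr7:102018233-102018482 (minus strand) for Il18bp, chr9:5298267-5298516 (plus strand) for Casp1 and chr9:5308599-5308848 (plus strand) for Casp4. The Il18bp stretch lies inside the annotated gene, which on the minus strand starts at 102018690. The bases before that annotated start of Il18bp were thus not searched. The end of the Casp4 stretch likewise runs past the annotated start at 5308828.
Il18bp: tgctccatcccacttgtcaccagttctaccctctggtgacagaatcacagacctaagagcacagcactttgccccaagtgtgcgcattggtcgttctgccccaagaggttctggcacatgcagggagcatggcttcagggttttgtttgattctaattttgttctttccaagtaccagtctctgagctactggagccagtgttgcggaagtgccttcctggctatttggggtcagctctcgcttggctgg
Casp1: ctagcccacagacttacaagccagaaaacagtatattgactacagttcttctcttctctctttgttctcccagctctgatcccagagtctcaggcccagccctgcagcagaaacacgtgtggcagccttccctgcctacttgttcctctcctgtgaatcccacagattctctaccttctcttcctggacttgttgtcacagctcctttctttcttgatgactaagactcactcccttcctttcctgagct
Casp4: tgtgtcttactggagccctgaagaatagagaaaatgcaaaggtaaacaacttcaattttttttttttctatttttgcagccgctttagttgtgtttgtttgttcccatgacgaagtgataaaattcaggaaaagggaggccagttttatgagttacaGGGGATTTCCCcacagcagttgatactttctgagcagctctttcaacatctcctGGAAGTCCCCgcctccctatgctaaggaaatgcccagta
The search covered both strands for that consensus, for GAAA and GAAA set 2 bases apart, the core of the interferon-stimulated response element, and for TTCNNNGAA, the gamma-activated site of interferon-responsive genes. Only the Casp4 stretch of these 3 held a match, at 2 places that begin 93 and 39 bases before the start, of which the first counts several overlapping matches. Of 32851 promoter stretches of the same length, 7.25% held the NF-kappaB consensus, 2.98% the interferon core and 7.02% TTCNNNGAA. A match is a run of letters and not a shown binding site.

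Nlrp3, the sensor gene (ENSMUSG00000032691.14, chromosome 11, 59541568 to 59566956, plus strand), was lowest in high glucose without ox-LDL. It had 21.97, 28.6, 22.95 and 23.1 CPM in H_O, 28.9, 24.6, 23.8 and 25.9 CPM in L_O, 16.8, 20.9, 19.1 and 16.3 CPM in H_C, and 24.1, 29.0, 24.6 and 29.3 CPM in L_C. All 4 H_C libraries lay below the 12 others, which overlapped. Nlrp3 fell by 31.6% in H_C against L_C (-0.55 ± 0.10, edgeR adjusted p = 0.00169). It rose by 31.9% in H_O against H_C (0.40 ± 0.10, edgeR adjusted p = 0.00825), and by 0.31 on the log2 scale without H_O replicate 2 (edgeR adjusted p = 0.0371). In low glucose ox-LDL gave -0.05 ± 0.10 (edgeR adjusted p = 0.759), and in H_O against L_O the difference was -0.09 ± 0.10 (edgeR adjusted p = 0.691).

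The adaptor and the pore gene passed the test in no comparison over all 16 libraries. Pycard (ENSMUSG00000030793.4, chromosome 7, 127989708 to 127993867, minus strand) averaged 73.4 ± 5.26 CPM in H_O, 81.4 ± 4.33 CPM in L_O, 68.2 ± 2.58 CPM in H_C and 77.8 ± 8.15 CPM in L_C (mean ± SD, n = 4 each). The smallest adjusted p of Pycard was in H_C against L_C, at -0.19 ± 0.07 (edgeR adjusted p = 0.0858), which did pass without L_C replicate 4 (-0.26, adjusted p = 0.00459). An opposite-strand transcript covers 12.8% of its exons, so part of its count is uncertain. Gsdmd (ENSMUSG00000022575.5, chromosome 15, 75862327 to 75867408, plus strand) averaged 59.5 ± 6.46 CPM in H_O, 59.2 ± 1.64 CPM in L_O, 58.2 ± 4.28 CPM in H_C and 63.2 ± 10.98 CPM in L_C. Its groups overlapped throughout, and the 95% interval of its log2 fold change was -0.31 to 0.12 in L_O against L_C and -0.18 to 0.25 in H_O against H_C. L_C replicate 4 was the lowest of its 16 libraries at 47.9 CPM, and without it Gsdmd fell by 0.21 in L_O against L_C (edgeR adjusted p = 0.0413) and by 0.23 in H_C against L_C (edgeR adjusted p = 0.0371).

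The cytokine genes had the lowest means per length over all 16 libraries, although Il18 (4.73) was above Casp4 (4.41) in L_O. That crossing depends on the annotated exon lengths, 1031 bases for Il18 and 3710 for Casp4. Il1b (ENSMUSG00000027398.13, chromosome 2, 129364570 to 129371139, minus strand), the classical product of an activated inflammasome, had 81 counts in all and none in 6 of the 16 libraries. Its counts were 0, 13, 5 and 0 in H_O, 0, 3, 0 and 5 in L_O, 3, 7, 5 and 0 in H_C, and 10, 18, 0 and 12 in L_C, so the groups overlapped and each held a library at 0. The log2 fold change was -2.27 ± 1.27 in L_O against L_C (edgeR adjusted p = 0.213) and 0.15 ± 1.24 in H_O against H_C (edgeR adjusted p = 0.958), and at this depth no difference was detectable. Il18 (ENSMUSG00000039217.13, chromosome 9, 50554827 to 50581840, plus strand) had 3.77, 3.21, 3.41 and 2.71 CPM in H_O, 4.63, 5.01, 5.62 and 4.25 CPM in L_O, 4.12, 3.80, 4.05 and 4.58 CPM in H_C, and 4.87, 5.50, 5.24 and 4.99 CPM in L_C. The H_O libraries were below all 12 others. Il18 fell by 32.9% in H_O against L_O (-0.58 ± 0.135, edgeR adjusted p = 0.0147), and the adjusted p was 0.0538 without H_O replicate 4 and 0.0565 without L_O replicate 3. The changes in H_C against L_C (-0.32 ± 0.134, edgeR adjusted p = 0.135) and in H_O against H_C (-0.34 ± 0.135, edgeR adjusted p = 0.086) did not pass, although neither pair of groups overlapped. Ox-LDL in low glucose gave -0.08 ± 0.13 (edgeR adjusted p = 0.718).

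**Figure D2:**
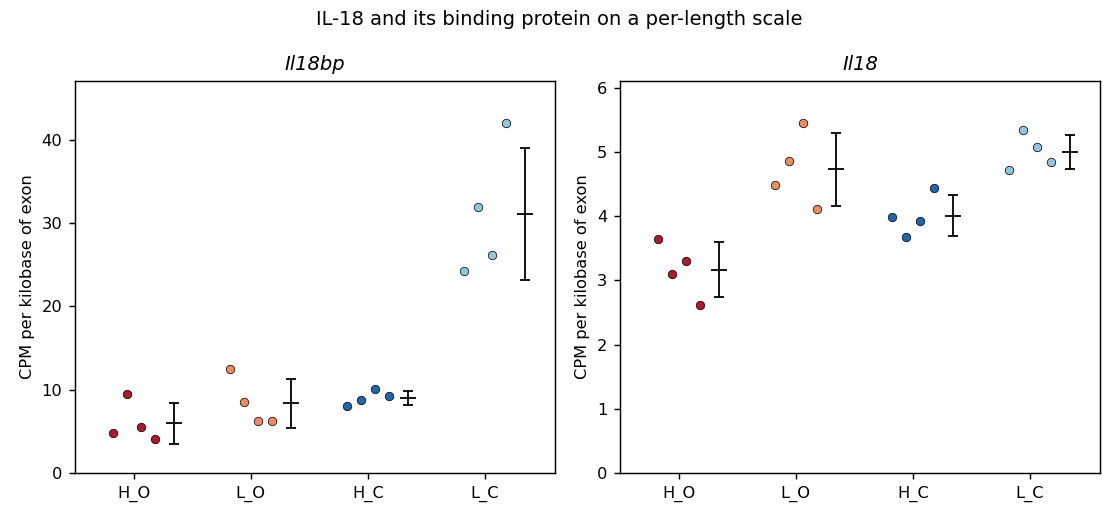
Levels of Il18bp and Il18 per kilobase of exon (vertical axes, CPM per kilobase, each from 0) in the H_O, L_O, H_C and L_C libraries; points are libraries and bars the mean ± SD (n = 4). Il18bp averaged 31.1 in L_C and at most 9.01 in the other groups, while Il18 averaged between 3.17 and 5.00.

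Set against Il18 on the per-length scale, Il18bp RNA was 1.32, 3.06, 1.66 and 1.55 times as abundant in H_O and 2.79, 1.75, 1.15 and 1.51 times in L_O. The ratio was 2.01, 2.37, 2.57 and 2.07 in H_C and 5.13, 5.98, 5.14 and 8.67 in L_C. On this scale RNA of the binding protein thus exceeded that of the cytokine in all 16 libraries, and every L_C ratio was above every other. No test was run on the ratio.

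Il1rn, the receptor antagonist gene (ENSMUSG00000026981.15, chromosome 2, 24336853 to 24351494, plus strand), had its highest mean with both treatments. It had 41.4, 32.9, 36.1 and 42.1 CPM in H_O, 28.1, 32.2, 27.3 and 27.7 CPM in L_O, 27.0, 24.9, 24.1 and 27.0 CPM in H_C, and 23.4, 25.5, 45.1 and 30.8 CPM in L_C. H_O was above L_O and H_C in every library, but L_C spanned all of them through replicate 3. Il1rn rose by 48.1% in H_O against H_C (0.57 ± 0.15, edgeR adjusted p = 0.00932). In H_O against L_O the difference was 0.40 ± 0.15 (edgeR adjusted p = 0.122), and it passed in a fit of those 8 libraries alone (adjusted p = 0.00537) or without L_C replicate 3 (0.0162). Ox-LDL in low glucose gave -0.11 ± 0.15 (edgeR adjusted p = 0.632), a value that turned to 0.12 without L_C replicate 3.

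Read by comparison, 3 of the 9 genes fell and 0 rose in L_O against L_C, where 13.8% of all 13527 tested entries fell, 12% rose and 25.8% passed in either direction. At an unadjusted p under 0.05 no member rose either, against 17.6% of all entries, and 3 fell, against 18.7%. In DESeq2 and limma-voom 0 rose too. The median log2 fold change was -0.11 over the members and 0.00 over all entries. In H_O against H_C, 2 rose (Nlrp3 and Il1rn) and 2 fell (Casp1 and Casp4), against 10.4% of all entries that rose, 11.5% that fell and 21.9% in either direction, with a median of 0.03 over the members. In H_C against L_C, 3 fell (Nlrp3, Casp1 and Il18bp) and 0 rose, against 7.75% of all entries that fell, 5.02% that rose and 12.8% in either direction, with a median of -0.32. The 0 held in DESeq2 and limma-voom, and at an unadjusted p under 0.05, where 11.7% of all entries rose. At that unadjusted level 6 members fell, against 14.9% of all entries. Without L_C replicate 4 Pycard and Gsdmd joined those that fell at the adjusted threshold, which made 5. In H_O against L_O, 2 fell (Casp1 and Il18), against 3.39% of all entries that fell, 2.71% that rose and 6.11% in either direction, with a median of -0.09 over the members. That count was 0 without H_O replicate 4 and 1 without H_O replicate 3 or L_O replicate 1, 2 or 3. There 0 rose in edgeR, DESeq2 and limma-voom. At an unadjusted p under 0.05, 1 member, Il1rn, was higher there, against 9.4% of all entries, and 3 were lower, against 10.3%.

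**Figure D3:**
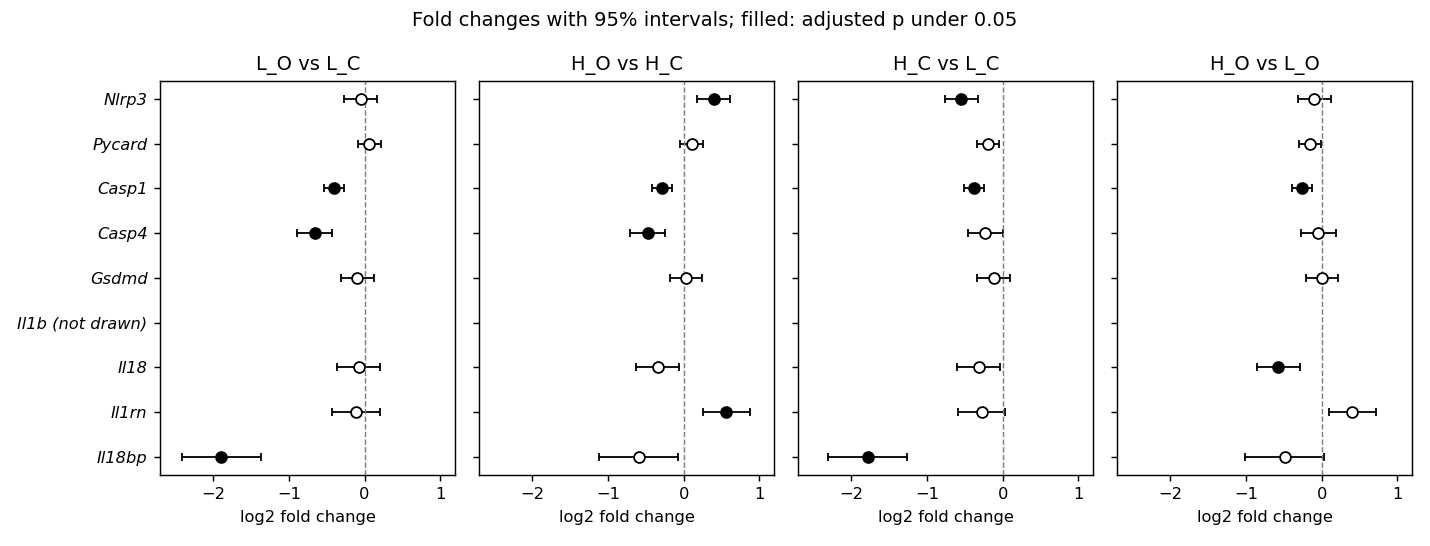
Log2 fold changes (horizontal axes) with 95% intervals for 8 members in the 4 comparisons named above the panels; filled points passed an edgeR adjusted p of 0.05, and Il1b is left out because its intervals are wider than the axis. Casp1 is filled in all 4 panels, and Il18bp lies farthest from 0 in both comparisons with L_C.

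Whether ox-LDL acted differently in high and in low glucose was tested as the difference between H_O against H_C and L_O against L_C. If L_O had no mannitol, its lack is part of this difference too and cannot be told apart from ox-LDL, and H_O against L_O then compares high glucose with low glucose that had no osmotic control. None of the 9 genes passed in edgeR, DESeq2 or limma-voom, against 0.0148% of all entries in edgeR, 0.00739% with a higher and 0.00739% with a lower value. At an unadjusted p under 0.05 there were 3, all with a positive difference, where 8.58% of all entries passed, 5.39% with a positive one. They were Il18bp (1.30 ± 0.35, edgeR adjusted p = 0.201), Il1rn (0.68 ± 0.21, edgeR adjusted p = 0.298) and Nlrp3 (0.45 ± 0.145, edgeR adjusted p = 0.331). A change past the threshold at only 1 glucose level, as for Il18bp, Nlrp3 and Il1rn, is thus not shown to differ between the levels.

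The genes whose log2 CPM followed a member most closely over the 16 libraries were looked up among 8412 named genes, as a description in which the libraries share their groups. For Il18bp they included Dtx3l (Pearson r = 0.986) and Irgm2 (0.986), with 0.892 and 0.932 after group means were removed. For Casp1 they were Cd274 (0.969), Samhd1 (0.968) and Axl (0.965), with 0.683, 0.819 and 0.665 within groups. For Casp4 they included B2m (0.978) and Slamf7 (0.970), with 0.905 and 0.852 within groups. Those of Nlrp3 were C1qb (0.922), Rpn1 (0.914) and Ctsc (0.901), with 0.767, 0.723 and 0.787 within groups. Those of Pycard were Sec61a1 (0.908), Hspa5 (0.883) and Slc25a4 (0.882), with 0.819, 0.804 and 0.75 within groups. Gsdmd was followed by Dhrs7 (0.850), Bst2 (0.850) and Parp10 (0.824), with 0.85, 0.856 and 0.844 within groups. Il1rn was followed by Mmp12 (0.852), Zranb3 (0.814) and Nufip1 (0.764), with 0.934, 0.733 and 0.734 within groups. Among the 7 members compared with each other, which leave out Il1b and Il18, Casp1 and Il18bp were the closest pair at 0.955, or 0.797 within groups. Gsdmd against Casp4 gave 0.00, or -0.304 within groups.

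A wider list of 57 genes of the pathway, of which 48 were tested, places the members among other sensors, partners, receptors and signalling proteins. In L_O against L_C 7 of them rose and 18 fell, against 12% and 13.8% of all entries, and their median was -0.15 on the log2 scale. In H_O against H_C 7 rose and 9 fell, against 10.4% and 11.5% of all entries, and their median was -0.06. In H_C against L_C 2 rose and 6 fell, against 5.02% and 7.75% of all entries, and in H_O against L_O 1 rose and 4 fell, against 2.71% and 3.39%. In H_O against L_O the counts ran from 1 to 6 higher and from 1 to 8 lower when single libraries were left out, with 6 and 8 without L_C replicate 4. No gene of the wider list passed the test of the difference between glucose levels in edgeR or limma-voom, and 1 did in DESeq2. At an unadjusted p under 0.05 in edgeR there were 4 of the 48, all with a positive difference. Of all entries 8.58% passed that level, 5.39% with a positive difference.

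**Figure D4:**
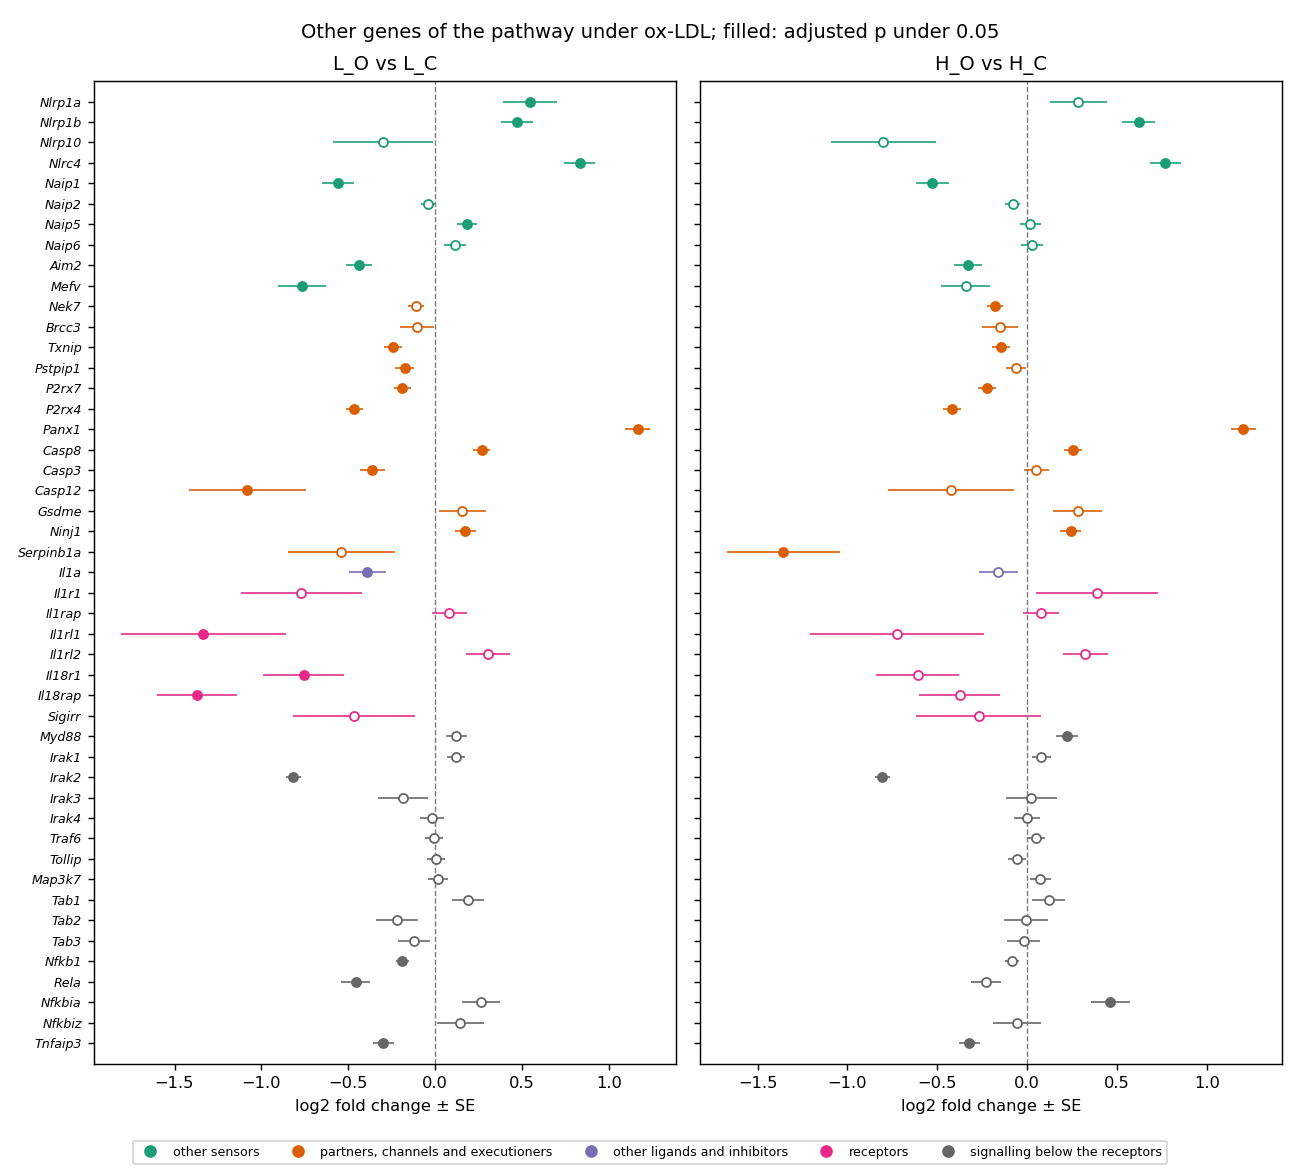
Log2 fold change ± SE (horizontal axes) of other genes of the pathway in L_O against L_C (left) and H_O against H_C (right), coloured by role; filled points passed an edgeR adjusted p of 0.05. Panx1 lies farthest to the right in both panels, at 1.17 and 1.2.

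Among the other sensors, Nlrc4, which answers bacterial flagellin and secretion systems through NAIP proteins, rose with ox-LDL at both glucose levels. It averaged 25.0 ± 1.51 CPM in H_O against 14.7 ± 1.27 CPM in H_C (edgeR adjusted p = 2.69e-06), and 25.0 ± 1.93 CPM in L_O against 14.0 ± 1.49 CPM in L_C (edgeR adjusted p = 9.9e-07). Naip1 fell in both (-0.53 ± 0.09 in high and -0.56 ± 0.09 in low glucose), but 31.5% of its 50-base runs also occur in other genes, Naip3 above all, which leaves its count uncertain. Aim2, a sensor of DNA in the cytosol, also fell (-0.33 ± 0.08 in high and -0.44 ± 0.08 in low glucose). Nlrp1b rose with ox-LDL in high glucose (0.62 ± 0.09, edgeR adjusted p = 6.22e-05) and low glucose (0.47 ± 0.09, edgeR adjusted p = 0.00069). It fell in H_C against L_C (-0.64 ± 0.09) and in H_O against L_O (-0.49 ± 0.09).

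Partners and executioners were led by Panx1, which encodes a channel that releases ATP. It had 34.3, 32.3, 33.4 and 36.6 CPM in H_O against 15.1, 13.5, 14.9 and 15.96 CPM in H_C, and 32.5, 36.3, 33.9 and 32.2 CPM in L_O against 13.9, 14.8, 16.3 and 15.1 CPM in L_C. Every library with ox-LDL was above every library without it (log2 fold change 1.2 ± 0.07 in high and 1.17 ± 0.07 in low glucose, edgeR adjusted p = 7e-10 and 8.96e-10). P2rx4, an ATP-gated channel, fell (-0.42 ± 0.05 in high and -0.47 ± 0.05 in low glucose), and Casp8, the apoptosis initiator that can also cut IL-1β, rose (0.25 ± 0.05 in high and 0.27 ± 0.05 in low glucose). With high glucose alone, Pstpip1, which binds pyrin, fell by 0.35 ± 0.05. Pstpip1 also fell in H_O against L_O (-0.24 ± 0.05, edgeR adjusted p = 0.0132, or 0.0553 without L_O replicate 1). It fell in L_O against L_C as well (-0.18 ± 0.05, edgeR adjusted p = 0.0227), a call lost without L_C replicate 3 or L_O replicate 2, 3 or 4, and it gave -0.06 ± 0.05 in H_O against H_C (edgeR adjusted p = 0.471). Txnip, a glucose-induced arrestin reported to bind NLRP3, rose by 0.21 ± 0.05 in H_C against L_C and by 0.31 ± 0.05 in H_O against L_O. Txnip fell with ox-LDL in high glucose (-0.15 ± 0.05, edgeR adjusted p = 0.0458, a call lost without any 1 of 11 of the 16 libraries) and in low glucose (-0.24 ± 0.05, edgeR adjusted p = 0.00133). Its count is uncertain, since 15.7% of its 50-base runs also occur in Gm15441.

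Among ligands and receptors, Il1a, unlike Il1b, had reads in every library. It averaged 23.3 ± 1.70 CPM in H_O, 29.7 ± 3.67 CPM in L_O, 26.1 ± 1.61 CPM in H_C and 38.9 ± 6.97 CPM in L_C. Il1a encodes IL-1α, which needs no caspase-1 cut to be active, and it fell in L_O against L_C (-0.39 ± 0.11, edgeR adjusted p = 0.0119) and in H_C against L_C (-0.58 ± 0.11, edgeR adjusted p = 0.00172). Without L_C replicate 4, its highest library at 48.9 CPM, these values of Il1a were -0.26 and -0.45 and both passed (edgeR adjusted p = 0.0311 and 0.0014). In H_O against L_O it gave -0.35 ± 0.11 (edgeR adjusted p = 0.0694), which passed without L_C replicate 4 (0.00734) or L_O replicate 2. Of its 50-base runs 9.14% also occur in Gm14023. Both subunit genes of the IL-18 receptor were weakly expressed and fell in L_O against L_C. Il18rap averaged 1.78 ± 0.31 CPM in L_O against 4.59 ± 0.95 CPM in L_C (edgeR adjusted p = 0.000171), and Il18r1 averaged 1.92 ± 0.53 CPM in L_O against 3.25 ± 0.39 CPM in L_C (edgeR adjusted p = 0.0222, a call lost without L_O replicate 2, 3 or 4). In H_O against H_C they gave -0.38 ± 0.23 for Il18rap and -0.61 ± 0.23 for Il18r1 (edgeR adjusted p = 0.278 and 0.0697), and the call for Il18r1 was gained without H_C replicate 1 or H_O replicate 2. T and NK cells carry this receptor too, and 5 of 6 of their markers were found at a summed 1.13 to 2.51 CPM in L_O against 3.22 to 4.84 CPM in L_C. Of those 5, 2 fell in that comparison, against 13.8% of all entries, and their part in the receptor result was not tested.

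Below the receptors, Irak2, a kinase of the MyD88 complex, fell to 56.9 ± 1.95 CPM in H_O against 99.5 ± 3.29 CPM in H_C (edgeR adjusted p = 1.68e-10). It fell to 58.6 ± 1.29 CPM in L_O against 103 ± 2.47 CPM in L_C (edgeR adjusted p = 1.15e-10). Tnfaip3, which encodes the NF-kappaB brake A20, fell as well (-0.32 ± 0.06 in high and -0.30 ± 0.06 in low glucose). Nfkbia, the gene of the inhibitor IκBα, rose in H_O against H_C (0.46 ± 0.11, edgeR adjusted p = 0.00401) and gave 0.26 ± 0.11 in L_O against L_C (edgeR adjusted p = 0.0821, past the threshold without L_C replicate 2). The NF-kappaB subunit gene Rela fell in L_O against L_C (-0.46 ± 0.09, edgeR adjusted p = 0.000534), and by 0.32 without L_C replicate 4, which stood at 131.9 CPM against 91.2 to 99.6 CPM in the other L_C libraries. In H_O against H_C Rela gave -0.23 ± 0.09 (edgeR adjusted p = 0.0632, or 0.000132 without L_C replicate 4). Of the 16 signalling genes, 2 rose and 2 fell in H_O against H_C, and none rose and 4 fell in L_O against L_C. At an unadjusted p under 0.05, 2 were higher in L_O against L_C, where 17.6% of all entries were. The shares of all entries that rose and fell were 10.4% and 11.5% in H_O against H_C and 12% and 13.8% in L_O against L_C, so 2 of 16 is close to the share of all entries.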

How the data were processed

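RNA was sequenced from 16 samples of mouse peritoneal macrophages, 4 in each of H_O, L_O, H_C and L_C. Total RNA was extracted with Trizol, per the labels' protocols. The deposited table holds read counts per gene, whole numbers with a different total for each library, used here as raw counts. HISAT2, DESeq2 and mm10 are named, without versions or roles, per the submitters' processing notes. The counting tool, its annotation and its strand setting are not given in the sources used here.

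All entries were tested together with edgeR 4.0.16 in R 4.3.3 (TMM scaling, filterByExpr by group, a mean for each group, quasi-likelihood F test). Benjamini-Hochberg adjustment ran over the 13527 tested entries of each contrast, with a threshold of 0.05. CPM are TMM-scaled, intervals are 95%, and the prior count behind log2 CPM was 2. Coordinates, identifiers and exon lengths come from GENCODE M21 (mm10), and promoters from RefSeq, which had 8 of the 9 members. Members, the wider list, the markers and the motifs were chosen with earlier results of these data known. The wider genes named have the smallest adjusted p of their role, up to 3 for each comparison. For some of them values in other comparisons are given too, and their values without each library were added after seeing the data. The genes most like a member are the top 3 named genes whose mean log2 CPM is 3 or more. A few genes that these rules name are not reported here. The procedure was tested on simulated data for L_O against L_C only, with changes larger than those called here for any member but Il18bp. The simulation did not cover smaller changes or levels as low as those of Il1b.

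Alternatives were RLE and upper-quartile factors, no scaling, no filter, a filter of 1 CPM in 4 samples, DESeq2 1.42.0, limma-voom (limma 3.58.1), a block for the replicate number, a fit of only the compared libraries, and leaving out each library.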

Additional observations from a re-analysis of the deposited data

Results flagged for a closer look

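The 36 sets of 4 libraries, 9 genes in 4 groups, were searched for a library far from the other 3 by Dixon's test at 95%, which flags about 1 set in 20 by chance. It singled out 2. Nlrp3 stood at 28.6 CPM in H_O replicate 2, against 21.97 to 23.1 CPM in the other H_O libraries. Il1rn stood at 32.2 CPM in L_O replicate 2, against 27.3 to 28.1 CPM in the other L_O libraries. H_O replicate 2 was also the highest H_O library for 7 of the 9 genes, more than any other library had within its group, where the counts ran from 0 to 5. Whether anything beyond chance sets these libraries apart was not tested.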

How the results depend on the processing

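The 45 log2 fold changes of the 9 genes (4 comparisons and the difference between glucose levels) had 1107 alternative values under 25 settings, and 1078 kept their direction and their side of the threshold. The calls of Nlrp3, Casp4, Il1rn and Il18bp, and those of Casp1 outside H_O against L_O, held under all 25. There were 6 lost calls, 7 gained calls and 16 changes of sign, and no change of sign touched a call. Without scaling, the values in L_O against L_C were 0.00527 for Il18 and 0.0334 for Nlrp3, and the median of all entries there moved by less than 0.1. Il1b in H_O against H_C was -0.662 in limma-voom and -0.119 with the replicate block, and in every comparison it was not tested under the filter of 1 CPM or in fits of only the compared libraries.

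When single libraries were left out, Casp4 in H_O against L_O ran from -0.111 to 0.00836, and Gsdmd from -0.0361 to 0.0837 in H_O against H_C and from -0.061 to 0.0576 in H_O against L_O. Il1b ran from -1.2 to 0.656 in H_O against H_C and from -0.294 to 1.97 in H_O against L_O. Il1rn in L_O against L_C ran from -0.228 to 0.119, and the difference between glucose levels for Pycard from -0.0154 to 0.106. Of the 9 genes, 3 to 5 fell in H_C against L_C, and in H_O against L_O 0 to 1 rose and 0 to 2 fell. Of the wider list, 1 to 3 rose in H_C against L_C, and in H_O against L_O 1 to 6 rose and 1 to 8 fell. Of all entries, 240 to 749 rose and 286 to 1014 fell in H_O against L_O, with the highest counts without L_C replicate 4. For the difference between glucose levels, 0 to 41 were higher and 0 to 12 lower, again highest without that library.

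In fits of only the compared libraries, 340 entries rose and 574 fell in H_C against L_C (679 and 1049 in the fit of all libraries), and 718 rose and 901 fell in H_O against L_O (367 and 459). In those fits 1 of the 9 genes rose in H_O against L_O, 6 of the wider list rose and 7 fell there, and 0 of the wider list rose in H_C against L_C. Without scaling, 2176 entries rose in H_O against H_C (1406 with it) and 2857 in L_O against L_C (1623 with it), 13 of the wider list rose in L_O against L_C, and 3 rose and 2 fell in H_O against L_O. In H_O against L_O, 3 of the wider list rose in DESeq2, 2 rose and 2 fell with upper-quartile factors, and 2 fell with no filter. For the difference between glucose levels, DESeq2 called 78 entries higher and 17 lower, 1 of the wider list among the higher, while edgeR called 1 and 1, limma-voom 0 and 0, and the replicate block 0 and 0. The cause of these differences was not tested.

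No pairing of the libraries by replicate number was seen. Deviations of same-numbered libraries correlated between -0.201 and 0.194 over 8730 genes, and the replicate block changed 0 of the 45 calls. These values cannot tell whether same-numbered libraries shared an animal or a batch. No fit of only the compared libraries exists for the difference between glucose levels, which needs all 4 groups. Depth limits Il1b, with at most 18 counts in a library, and 4 libraries a group limit the rest.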
